A study of Homo sapiens with 288 samples.

Results

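FOS, FOSB, JUN, JUNB, EGR1, ATF3, IER2 and DUSP1 are immediate early genes, and they were described here in single endothelial and trophoblast-like cells made from human embryonic stem cells. The 8 genes were chosen by symbol, out of 17492 protein-coding genes in the count tables, and each symbol matched 1 row. In FOS and EGR1 the difference between the cell types was the clearest: both were at 10 CPM (counts scaled to a library total of 1000000) or more in all 48 TB cells of the main experiment, while in EC their means rested largely on single cells.

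Immediate early genes are transcribed within minutes of a stimulus, such as serum, a growth factor, stretch or tissue dissociation, without the need for new protein synthesis. Signals that reach the kinases ERK, JNK and p38 activate factors already bound at their promoters, among them SRF with its ETS-family partners and CREB. FOS and JUN family proteins then pair as the transcription factor AP-1, EGR1 is a zinc finger transcription factor, and DUSP1 is a phosphatase that switches the same kinases off again. The transcripts are short-lived, and because enzymatic dissociation itself can induce them, they are a familiar feature of single-cell data.

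Both cell types were derived from the H1 line, an established human embryonic stem cell line. For EC, cells in E8 medium received BMP4 at 5 ng/ml with Activin A at 25 ng/ml for 2 days and then VEGF and WNT for 3 days. For TB, cells were kept in E8 medium without FGF2, with BMP4 at 50 ng/ml and the inhibitor SB431542. The study asked how equalizing the cDNA of single cells changes the data. It used stored full-length cDNA of 45 EC and 51 TB cells, captured singly on the Fluidigm C1. The experiments EQ, EQ-Vary and EQ-75% all took an equal cDNA input per cell. EQ-Vary pooled the libraries in varied volumes, and EQ-75% was a repeat of EQ sequenced to a lower depth. Because the 3 experiments share the cDNA of each cell, their agreement speaks of library preparation and sequencing only. Each cell type in an experiment is 1 sample with no named replicate culture. Differences between EC and TB therefore carry the SD between cells and no p-value, and the culture, its dissociation and the cell type cannot be told apart.

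In the libraries that passed the study's limits, 38 EC and 48 TB cells in EQ, 38 and 46 in EQ-Vary and 39 and 50 in EQ-75%, the total count ranged from 291346 to 6345155. EC cells expressed endothelial genes, with 12 of the 12 tested endothelial markers at least 2-fold higher than in TB. Here and below a gene counts as tested where its mean was 10 CPM or more in either type, which stands for a filter on level and not for a statistical test. Of all 9612 genes tested, 23.7% were at least 2-fold higher in TB and 17.8% in EC, the background for every such count. TB cells expressed 8 of 10 tested trophoblast markers at least 2-fold higher, VTCN1 among them at 1142 ± 468 CPM (SD, n = 48 cells). The trophoblast markers CGA and CDX2 were near 0 in TB, at 2.93 ± 3.11 and 0.348 ± 2.41 CPM, while the mesenchymal list had 5 of 6 genes at least 2-fold higher in TB, led by LUM at 3042 ± 2423 CPM. The part of this mesenchymal signal in the results below was not tested. Values below are from EQ unless another experiment is named.

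The promoters of the 8 genes are shown first, for the genes in which a searched motif fell near the transcription start. RefSeq (GRCh38.p14) gave 9 windows, since ATF3 has 2 starts, each from 250 bases before to 50 bases after the start. Both strands were searched for the CArG box bound by SRF (by name), the cAMP response element TGACGTCA bound by CREB and ATF proteins, the AP-1 site TGANTCA, the EGR site GCGNGGGCG and the TATA box TATAAA. The 250 bases before the start are printed 5′ to 3′ on the strand of the gene, with matches in capitals. They lie at chr5:138465229-138465478 (EGR1, + strand), chr5:172771196-172771445 (DUSP1, - strand), chr14:75278578-75278827 (FOS, + strand), chr19:45467746-45467995 (FOSB, + strand) and chr19:12791236-12791485 (JUNB, + strand).
EGR1: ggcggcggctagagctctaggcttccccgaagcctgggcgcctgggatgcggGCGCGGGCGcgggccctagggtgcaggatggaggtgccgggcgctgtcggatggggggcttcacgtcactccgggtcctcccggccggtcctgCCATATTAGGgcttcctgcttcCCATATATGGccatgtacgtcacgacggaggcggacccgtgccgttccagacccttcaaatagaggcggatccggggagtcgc
DUSP1: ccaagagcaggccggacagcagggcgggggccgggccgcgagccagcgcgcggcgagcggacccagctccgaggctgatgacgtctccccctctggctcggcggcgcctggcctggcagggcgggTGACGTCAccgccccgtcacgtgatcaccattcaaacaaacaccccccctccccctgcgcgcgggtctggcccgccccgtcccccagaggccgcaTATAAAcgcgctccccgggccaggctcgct
FOS: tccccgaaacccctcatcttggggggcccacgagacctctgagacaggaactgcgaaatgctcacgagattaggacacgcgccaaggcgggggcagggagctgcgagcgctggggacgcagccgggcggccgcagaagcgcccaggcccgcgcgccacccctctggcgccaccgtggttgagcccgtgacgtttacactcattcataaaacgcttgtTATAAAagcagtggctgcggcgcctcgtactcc
FOSB: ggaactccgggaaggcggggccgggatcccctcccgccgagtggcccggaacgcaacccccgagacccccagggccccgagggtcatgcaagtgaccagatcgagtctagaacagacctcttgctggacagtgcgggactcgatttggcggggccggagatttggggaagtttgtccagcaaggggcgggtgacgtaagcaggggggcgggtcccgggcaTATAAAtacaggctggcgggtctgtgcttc
JUNB: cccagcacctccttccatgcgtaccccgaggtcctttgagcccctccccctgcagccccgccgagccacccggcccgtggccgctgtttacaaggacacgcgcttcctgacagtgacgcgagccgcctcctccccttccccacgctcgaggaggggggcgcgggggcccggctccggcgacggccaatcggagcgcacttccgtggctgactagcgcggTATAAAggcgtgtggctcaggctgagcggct

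EGR1 held 2 CArG boxes, which began 105 and 83 bases before the start, and an EGR site 198 bases before it. DUSP1 held the cAMP response element, 125 bases before the start. CArG boxes were in 1.29% of all 35116 promoter windows of the same length, cAMP response elements in 1.85% and EGR sites in 9.43%. A TATA box stood 30 to 33 bases before the start in FOS, FOSB, JUNB and DUSP1, and 230 bases before the start in 1 window of ATF3, against 11.5% of all windows with one at any position. The AP-1 site was in 0 of the 9 windows and in 7.71% of all. JUN and IER2 held none of these letters in this window, from which nothing follows about the factors.

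The genes were higher in TB than in EC for 6 of 8 by at least 2-fold in mean CPM, and for 0 of 8 by at least 2-fold in the other direction. The background is 23.7% of the 9612 genes with a mean of 10 CPM or more in either type for a 2-fold excess in TB, and 17.8% for one in EC. The median log2 ratio of TB to EC was 3.01 over the 8 genes and 0.05 over all 9612. The members past 2-fold were FOS, FOSB, JUN, JUNB, EGR1 and ATF3, and those below it were IER2 and DUSP1. On the CPM scale the difference of the means was larger than the SD between cells of both types only for FOS and EGR1. On the log2(CPM + 1) scale it was larger for all 6 genes past 2-fold, with ATF3 for example at 4.91 ± 2.09 in TB and 0.84 ± 1.71 in EC, and smaller for IER2 and DUSP1.

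**Figure D1:**
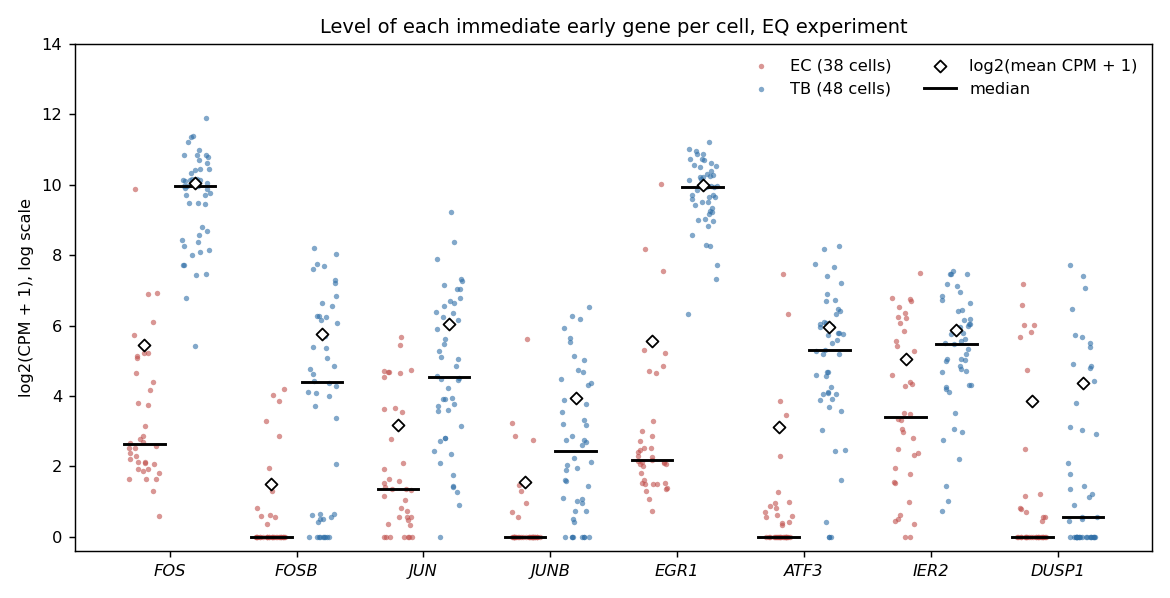
CPM of each of the 8 genes in every passing cell of EQ, on a log2(CPM + 1) axis, with 38 EC cells in red and 48 TB cells in blue. Black bars are medians and diamonds are means. FOS and EGR1 form a high band in TB, with medians of 1003 and 980 CPM, while in EC the means lie far above the medians of 5.19 and 3.50 CPM because of single high cells.

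FOS, the partner that gives the family its name (chr14:75278826-75282230, + strand, 4 exons), ranged in TB from 41.9 CPM through a median of 1003 to 3846. In EC it ranged from 0.511 through a median of 5.19 to 946 CPM. The groups overlapped, since 5 of the 38 EC cells reached the lowest TB value, but no EC cell reached the TB median. The means were 1062 ± 789 CPM in TB and 42.6 ± 153 in EC, a log2 ratio of 4.64 or 24.9-fold. Cell EC 36 alone gave 58.4% of the summed EC CPM, and without it the ratio was 58.2-fold. The next highest EC cell, EC 30, had 120 CPM. With the libraries outside the study's limits added, the log2 ratio was 4.0.

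EGR1 (chr5:138465479-138469303, + strand, 2 exons) was, like FOS, present at 10 CPM or more in every TB cell, with a smaller spread. Its TB values ran from 79.4 CPM through a median of 980 to 2379, and its EC values from 0.657 through a median of 3.50 to 1042. Only 3 EC cells reached the lowest TB cell: EC 26 at 1042, EC 21 at 291 and EC 15 at 188 CPM. The means were 1018 ± 545 CPM in TB and 46.7 ± 175 in EC, a log2 ratio of 4.45 or 21.8-fold. Cell EC 26 gave 58.7% of the EC sum, and without it the ratio was 51.5-fold.

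The highest EC cells of FOS and EGR1 were different cells. In cell EC 36, with FOS at 946 CPM, EGR1 was at 3.80 CPM, and in cell EC 26, with EGR1 at 1042 CPM, FOS was at 3.61 CPM. At 10 CPM or more, 4 of 38 EC cells had both transcripts, 10 had FOS without EGR1, 4 had EGR1 without FOS and 20 had neither. In TB all 48 cells had both. The same counts were 5, 10, 3 and 20 of 38 EC cells in EQ-Vary and 4, 9, 4 and 22 of 39 in EQ-75%, and all TB cells had both in each experiment. These counts follow in part from how many EC cells had each transcript, and neither separation nor sharing of the genes is read from them.

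**Figure D2:**
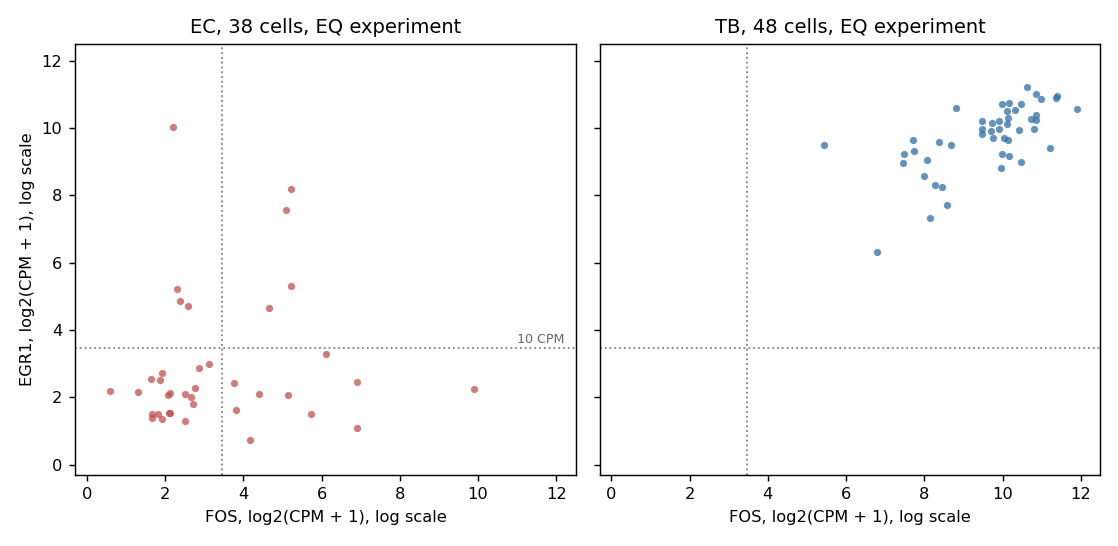
EGR1 against FOS in each passing cell of EQ, both as log2(CPM + 1), with EC on the left and TB on the right and dotted lines at 10 CPM. TB cells form 1 rising cloud in the upper right, where all 48 lie, while 4 of 38 EC cells lie past both lines and 20 lie below both.

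FOSB, a second FOS-family partner (chr19:45467995-45475179, + strand, overlapping ERCC1 on the other strand), had a lower mean and median CPM than FOS in both types, though not in every EC cell. In TB it ran from 0 through a median of 20.1 to 291 CPM, and in EC from 0 through a median of 0 to 17.5. No EC cell reached the TB median, but 9 TB cells had no FOSB count. The means were 53.7 ± 74.5 and 1.80 ± 4.45 CPM, a log2 ratio of 4.90 that rests on 136 counts in all EC cells together. With the libraries outside the study's limits added, the log2 ratio was 3.36.

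JUN, the main partner of FOS in AP-1 (chr1:58776845-58784048, - strand, 1 exon), ran in TB from 0 through a median of 22.1 to 595 CPM and in EC from 0 through a median of 1.56 to 49.9. The groups overlapped widely: 8 EC cells were above the TB median and 31 of 48 TB cells were below the highest EC cell. Mean levels were 64.8 ± 103 and 7.98 ± 12.7 CPM, a log2 ratio of 3.02. Cell TB 14 held 19.1% of the TB sum.

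JUNB, a JUN relative with weaker activity in many settings (chr19:12791486-12793315, + strand, 1 exon, overlapping HOOK2 on the other strand), had the lowest mean in TB, although DUSP1 had the lower median and was detected in fewer TB cells. It ran from 0 through a median of 4.44 to 90.9 CPM in TB, and from 0 through a median of 0 to 48.5 in EC. The means were 14.3 ± 22.1 and 1.95 ± 7.99 CPM, a log2 ratio of 2.88 or 7.34-fold. Cell EC 2 gave 65.4% of the EC sum, and without it the ratio was 20.7-fold.

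ATF3, a stress-induced factor of the ATF and CREB family that can also pair with JUN (chr1:212565334-212620777, + strand, 4 exons), ran in TB from 0 through a median of 38.3 to 306 CPM. In EC it ran from 0 through a median of 0 to 177 CPM, and 2 EC cells were above the TB median. The means were 61.1 ± 71.4 and 7.65 ± 31 CPM, a log2 ratio of 3.00 or 7.98-fold. Cell EC 27 gave 60.7% of the EC sum, and without it the ratio was 19.8-fold.

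IER2, a nuclear regulator of transcription induced early by growth factors (chr19:13150411-13154911, + strand), was at 10 CPM or more in 19 of 38 EC cells, more than any other member. Its EC values ran from 0 through a median of 9.67 to 179 CPM and its TB values from 0.667 through a median of 43.8 to 186. The highest cells of both types were at nearly the same level, and 11 EC cells were above the TB median. Mean levels were 32.4 ± 42.6 and 58.1 ± 51.6 CPM, a log2 ratio of 0.84. Without cell EC 13, the highest in EC, the ratio was 2.04-fold, and in EQ-75% it was 2.38-fold, both past the 2-fold line that IER2 missed in EQ at 1.79-fold.

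DUSP1, the phosphatase that dephosphorylates ERK, JNK and p38 (chr5:172768096-172771195, - strand, 4 exons), was sparse in both types. Its values ran from 0 through a median of 0 to 144 CPM in EC and from 0 through a median of 0.479 to 212 in TB. The means were 13.4 ± 31.8 and 19.6 ± 44.4 CPM, a log2 ratio of 0.55. It was at 10 CPM or more in 7 of 38 EC cells and in 13 of 48 TB cells.

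Set against each other per kb of the longest coding transcript, the mean levels in TB were in the order FOS (505 CPM per kb), EGR1 (325), ATF3 (31.5), JUN (19.9), IER2 (19.8), FOSB (14.2), DUSP1 (9.76) and JUNB (7.83). The step from EGR1 to ATF3 is the only one wider than the spread between cells. FOS and EGR1 do not differ beyond the spread of FOS, whose SD was 0.743 of its mean, and the 6 lower genes do not separate from their neighbours, with SDs of 0.889 to 2.26 of their means. In EC the order was FOS (20.3 CPM per kb), EGR1 (14.9), IER2 (11), DUSP1 (6.66), ATF3 (3.94), JUN (2.45), JUNB (1.07) and FOSB (0.478), and no neighbours in it were separated by more than their SDs.

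Counted per cell, more of the 8 genes were at 10 CPM or more in TB than in EC. A TB cell had a median of 6 members at 10 CPM or more, with a range of 2 to 8, and an EC cell a median of 2, with a range of 0 to 5. In TB 31 of 48 cells had 6 members or more and 6 cells had all 8, while in EC 0 of 38 cells had 6 or more and 7 had none. In EQ-75% 30 of 50 TB cells and 0 of 39 EC cells had 6 or more. These counts restate the levels of the single genes and say nothing of whether the genes go together.

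**Figure D3:**
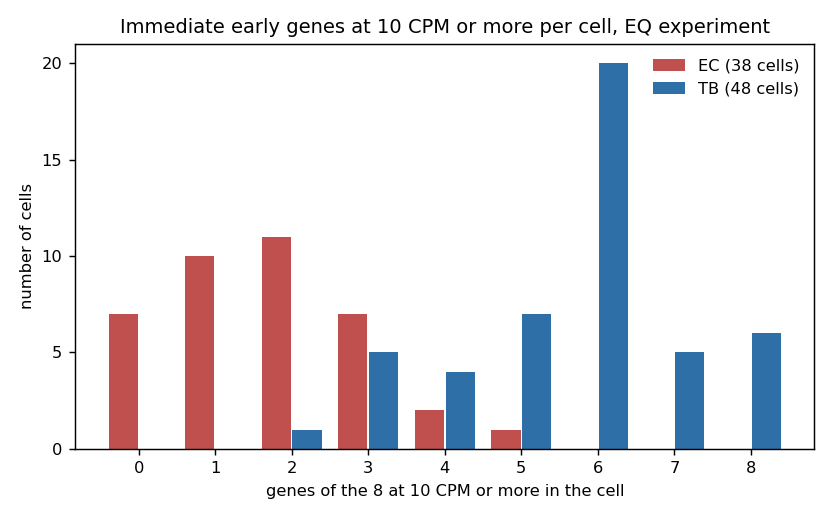
Number of cells, from 0 on the vertical axis, by how many of the 8 genes were at 10 CPM or more in the cell, in EQ. EC cells (red) pile up at 0 to 3 genes and TB cells (blue) at 6, where 20 of the 48 lie.

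The detection rate, the share of cells with a rounded count of 1 or more, gave a milder contrast than the level. FOS and EGR1 were detected in 38 of 38 EC cells (100%, exact Clopper-Pearson 95% interval 90.7 to 100%, for counting error only) and in 48 of 48 TB cells (100%, 92.6 to 100%). IER2 was detected in 94.7% of EC cells (82.3 to 99.4%) and 100% of TB cells, and JUN in 81.6% (65.7 to 92.3%) and 97.9% (88.9 to 99.9%). FOSB was detected in 31.6% of EC cells (17.5 to 48.7%) and 81.3% of TB cells (67.4 to 91.1%), and JUNB in 23.7% (11.4 to 40.2%) and 83.3% (69.8 to 92.5%). ATF3 was detected in 44.7% (28.6 to 61.7%) and 93.8% (82.8 to 98.7%), and DUSP1 in 42.1% (26.3 to 59.2%) and 56.3% (41.2 to 70.5%). The intervals of EC and TB did not overlap for FOSB, JUNB and ATF3. The share of all genes with such a gap is not given, so nothing particular to these genes is read from it. With every cell thinned to 250000 counts, EGR1 was left in 55.3% of EC cells and FOS in 84.2%, while both stayed at 100% in TB.

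Low counts of FOS and EGR1 in EC were near the level that TB-restricted genes also showed there. The EC median was 0.489% of the TB mean for FOS and 0.344% for EGR1. It was 0.283% for VTCN1, 0.262% for LUM, 0.214% for COL3A1 and 0.219% for HAND1. These were the trophoblast and mesenchymal markers with a TB mean of at least 200 CPM and an EC mean below 1% of it. Their low share in EC was thus set by this choice, which left out markers with more signal in EC, such as KRT8 and KRT18. HAND1 was detected in 25 of 38 EC cells and was at 10 CPM or more in 0. VTCN1 and LUM were detected in 38 of 38 EC cells, just as FOS and EGR1 were, at EC medians of 3.24 and 7.96 CPM and with a median total of 2025136 counts in EC and 1968563 in TB. Of the 286 genes with a mean of 500 CPM or more in TB, none had an EC median of 0 and the lowest was at 0.203% of the TB mean. In 3 nearly empty EC libraries of 11404 to 13913 counts, 2 to 8 counts were of FOS and 1 to 7 of EGR1. LUM was at 10 CPM or more in 16 of 38 EC cells, with a highest EC value of 55.6 CPM, while VTCN1 and COL3A1 each were in 1 EC cell, at 17.1 and 15.7 CPM. EC values of FOS and EGR1 below 10 CPM, and those somewhat above it, are read here neither as expression nor as background. LUM, of these markers the one most often at 10 CPM or more in EC, had a TB mean of 3042 CPM, above those of FOS and EGR1. VTCN1 and COL3A1 had TB means nearer to theirs, at 1142 and 735 CPM. FOS was at 10 CPM or more in 14 of 38 EC cells and EGR1 in 8. The part of a background in the EC counts was not tested.

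The order of cells was largely kept when the same cDNA was prepared again. In TB, Spearman's rho between EQ and EQ-75% over the 47 cells that passed in both was 0.994 for FOS and 0.988 for EGR1, and it ranged from 0.882 to 0.994 over the 8 genes. In EC, over 37 cells, it ranged from 0.383 for ATF3 to 0.964 for IER2. The highest cell was the same in EQ and EQ-75% for 6 of 8 genes in EC and 4 of 8 in TB. Cell EC 36 had FOS at 946, 933 and 936 CPM in EQ, EQ-Vary and EQ-75%, and EC 26 had EGR1 at 1042, 1026 and 837 CPM. Among the 23 EC cells below 10 CPM of FOS in both EQ and EQ-75%, rho was 0.135, and among the 29 below 10 CPM of EGR1 it was 0.203. Between EQ and EQ-Vary the same rho was higher, at 0.716 over 23 EC cells for FOS and 0.554 over 30 for EGR1. IER2 kept a rho of 0.817 between EQ and EQ-75% over the 18 EC cells below that level.

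**Figure D4:**
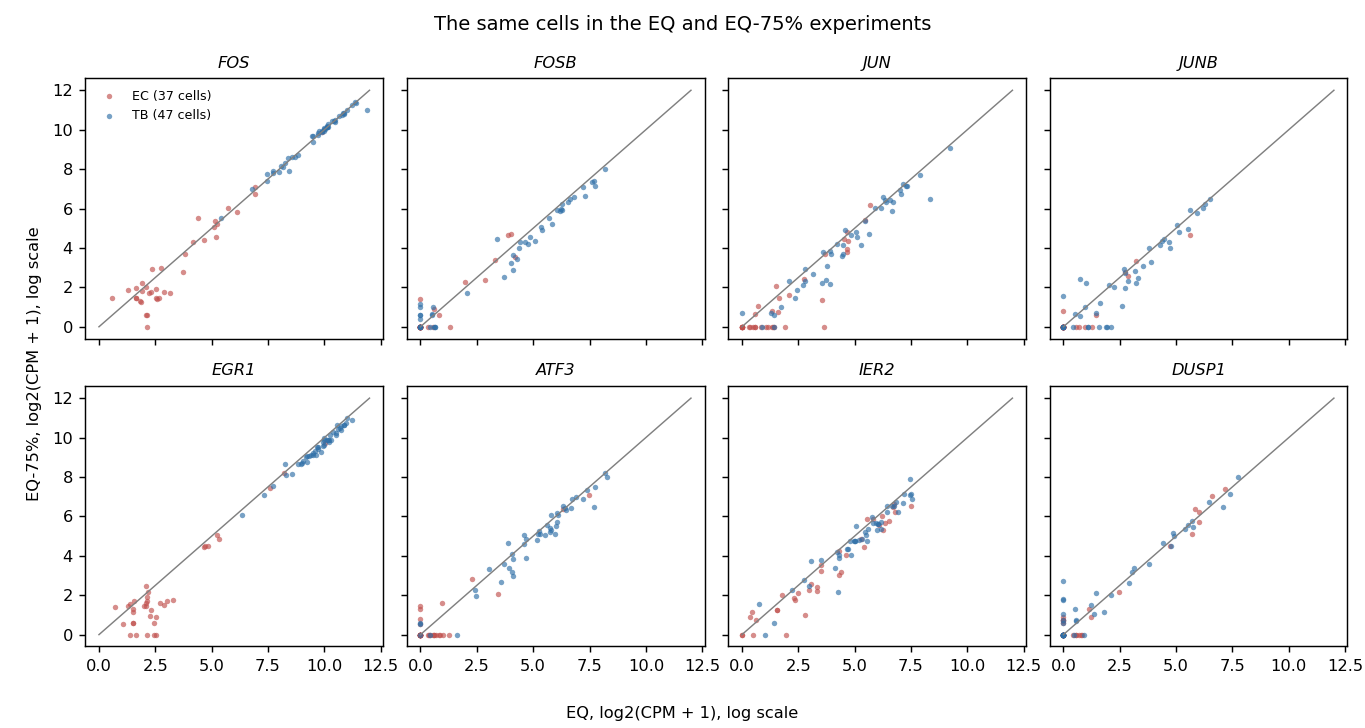
Each of the 8 genes in EQ (horizontal) and EQ-75% (vertical) in the same cells, as log2(CPM + 1), with 37 EC cells in red, 47 TB cells in blue and the line of equality in grey. High cells of both types lie along the line, whereas low EC values of FOS and EGR1 form a cloud in the lower left corner, and EGR1 and JUN in TB lie mostly below the line.

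Levels of several members were lower in EQ-75% than in EQ. The mean of log2(CPM + 1) over the 8 genes was lower by 0.289 ± 0.257 in EC (SD, 34 of 37 cells lower) and by 0.195 ± 0.205 in TB (43 of 47 cells lower), where the median of all genes was lower by 0.131 and 0.079. The 10th percentile of all genes was -0.348 in EC and -0.258 in TB, so falls of this size were not particular to the 8 genes. EGR1 in TB was lower in 44 of 47 cells and its mean was 84.9% of that in EQ. JUN was at 80.9%, FOSB at 80.4% and IER2 at 83.1% of the EQ mean in TB, while FOS was at 97.7% and DUSP1 at 99.8%. Between EQ and EQ-Vary the 8-gene mean differed by -0.04 ± 0.21 in EC and 0.00 ± 0.16 in TB. Cell TB 40, the highest for FOS in EQ at 3846 CPM, was at 2014 CPM in EQ-75%, and its JUN was at 328 and 88.1 CPM. Its library was the shallowest passing TB library of EQ, with 365536 counts, and did not pass in EQ-Vary.

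In TB most pairs of members were positively correlated between cells. Over the 28 pairs of genes the median Spearman's rho of CPM was 0.26, with a range of -0.15 to 0.68 over 48 cells, and it was 0.29 in EQ-Vary and 0.26 in EQ-75%. In all 3 experiments 27 of 28 pairs were positive and 6 pairs were at 0.3 or more. FOS with EGR1 stood highest at 0.68 to 0.70, followed by FOS with IER2 (0.41 to 0.51), FOS with FOSB (0.46 to 0.48), FOSB with EGR1 (0.40 to 0.45), JUN with EGR1 (0.38 to 0.44) and EGR1 with ATF3 (0.37 to 0.42). FOSB with JUNB was the exception, at -0.15 to -0.11. These are descriptions over cells of 1 sample, which share culture, capture and library preparation. The share of such pairs among all genes of like level is not given, so the counts of pairs have no background.

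In EC the median rho was 0.01 over 38 cells, with a range of -0.31 to 0.29, and 0.07 and 0.06 in EQ-Vary and EQ-75%. Of the 28 pairs, 8 were positive and 6 negative in all 3 experiments and 0 were at 0.3 or more in all. FOS with EGR1 was at 0.18, 0.12 and 0.04. With values below 10 CPM set to 0, the EC median was 0.04. Because most EC values are near 0, such weak correlations are no finding.

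**Figure D5:**
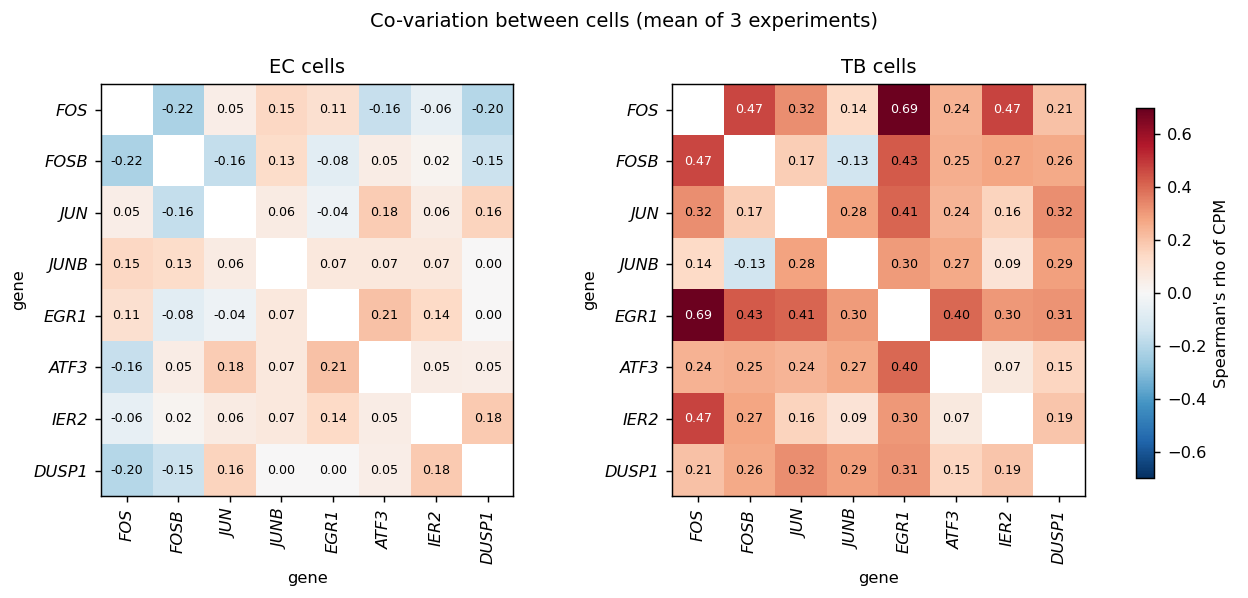
Spearman's rho of CPM between cells for each pair of the 8 genes, as the mean of the 3 experiments, in EC (left) and TB (right), from blue (negative) to red (positive). In TB the pair FOS and EGR1 is the darkest, at 0.69, and FOSB with JUNB is the only negative pair, at -0.13, while in EC both signs occur and the colours are pale.

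Each member was also set against the mean log2(CPM + 1) of the other 7. In TB 7 of 8 members had a rho of 0.3 or more, led by EGR1 at 0.66, FOS at 0.55 and JUN at 0.45, with JUNB below at 0.27. In EC 0 of 8 did. The background, the share of all genes with a rho of 0.3 or more with the 8-gene mean, was 5.55% of 7834 genes in TB and 13.3% of 6968 in EC. In EQ-Vary the count was 7 of 8 in TB and 2 of 8 in EC, JUN at 0.35 and EGR1 at 0.32, and in EQ-75% it was 5 of 8 in TB and 0 of 8 in EC. The 8-gene mean had a rho of -0.19 with total count, -0.16 with genes detected and 0.29 with the share of counts in the 50 most abundant genes in TB, and -0.23, 0.25 and -0.18 in EC. With total count and genes detected partialled out, the median rho of the pairs was 0.27 in TB and -0.04 in EC.

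FOS stood out for the size of its spread between TB cells. The variance of its log2(CPM + 1) was 2.86 times the trend for genes of the same level, above 99.8% of 13009 genes, and it was 2.95 times in EQ-Vary and 2.47 times in EQ-75%. FOSB was at 1.77 times and EGR1 at 1.59 times the trend in TB, against 1.29 and 1.33 times in EQ-75%, and the other members were between 0.638 and 1.19. In EC the 8 members were between 0.651 and 1.25 times the trend. The trend is the running median of all genes of like level in the same cells.

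Other genes of the response did not all follow. The counts in this and the following list paragraphs stand against 23.7% of all tested genes at least 2-fold higher in TB and 17.8% in EC. Counts near these shares say nothing particular of a list. Among 6 tested genes of the AP-1 and EGR families outside the 8, EGR2, a close relative of EGR1, was at 0.147 ± 0.310 CPM in EC and 60.7 ± 124 in TB, and MAFG, a small MAF protein, was higher in EC (16.8 ± 35.7 against 4.99 ± 11.1). Here 2 genes were at least 2-fold higher in TB and 2 in EC. Of 14 other immediate early genes, 5 were at least 2-fold higher in TB and 2 in EC. CTGF, a secreted matrix-associated protein and target of YAP and SRF, was at 248 ± 262 CPM in TB and 0.816 ± 1.83 in EC, and GADD45B, a stress-inducible gene, at 14.3 ± 40.6 and 0.0480 ± 0.144. KLF6 was high in both types (309 ± 264 in TB, 229 ± 241 in EC), and PHLDA1 was higher in EC (425 ± 406 against 172 ± 216). The mean log2(CPM + 1) of this list had a rho of 0.59 to 0.65 with that of the 8 genes in TB over the 3 experiments. In EC this rho was 0.20 to 0.32.

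Feedback regulators of the kinase pathway were mostly higher in EC, while its kinases and factors went both ways. Of 12 tested phosphatases and feedback regulators, 9 were at least 2-fold higher in EC and 1 in TB, with a median log2 ratio of -1.97. DUSP6, the ERK-specific phosphatase induced by ERK signalling, was at 734 ± 514 CPM in EC and 6.62 ± 18 in TB, DUSP7 at 163 ± 195 and 3.72 ± 11.2, and DUSP5 at 114 ± 109 and 39.4 ± 68.6. Of 16 upstream kinases and factors, 6 were at least 2-fold higher in EC and 4 in TB. ELK3, an ETS partner of SRF, was at 343 ± 457 CPM in EC and 3.31 ± 6.79 in TB, and ELK1 at 0.923 ± 4.95 and 10.0 ± 31.8. The kinase RPS6KA5 was present in both, at 171 ± 97.2 CPM in EC and 144 ± 98.6 in TB.

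Most heat shock and dissociation stress genes stayed under 2-fold between the types: 1 of 17 was at least 2-fold higher in TB and 2 in EC, with a median log2 ratio of -0.08. HSPA8 was at 1481 ± 838 CPM in EC and 2442 ± 1193 in TB, while HSPA1A was at 91.1 ± 466 and 10.9 ± 19.2. The mean of this list had a rho of 0.03 to 0.06 with the 8-gene mean in TB and 0.32 to 0.35 in EC over the 3 experiments. Cell type markers moved as much with the 8-gene mean in EC: rho was 0.32 to 0.39 for pluripotent, 0.25 to 0.29 for trophoblast and -0.33 to -0.27 for endothelial markers, and their part was not tested. Of 11 tested genes of the ATF4 and integrated stress response, 2 were at least 2-fold higher in TB and 4 in EC, and ATF4 itself was at 209 ± 202 in EC and 198 ± 150 in TB. Other cell types were followed by their markers: of the blood list only PTPRC passed the filter on level, at 18.9 ± 23.8 CPM in EC and 12.9 ± 14.8 in TB. In TB, over the 3 experiments, the 8-gene mean had a rho of -0.32 to -0.27 with mitosis genes and -0.31 to -0.25 with mesenchymal markers. For endothelial markers, which were low in TB, rho was of like size at 0.25 to 0.30, and the part of these lists was not tested.

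The genes most like the 8-gene mean were ranked by the mean rho over the 3 experiments. In TB, among 7834 genes, the highest included RPS29 (0.60), KLF6 (0.58), RPS20 (0.55), EEF1A1, QRICH1, RPL23A, RPL37, RPL7 and PFDN5 (0.49). RPS29, RPS20, RPL23A, RPL37 and RPL7 encode ribosomal proteins and EEF1A1 a translation elongation factor. At the other end stood SEPT7 (-0.55), RPN1 (-0.56) and PKM (-0.62), a glycolytic enzyme. In EC, among 6968 genes, the highest included HAUS2 (0.74), ZNF140 (0.62), ITPKB, MTFMT, MCUR1, ZNF556, ZNF471, SNRNP35 and BCAS4 (0.56), and the lowest were SPEN, ALDOA and LGALS1 (-0.51). No gene of the EC list was in the TB list. Of the 10 EC genes 4 remained when the mean was taken over ranks, against 8 of 10 in TB.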

How the data were processed

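The data were expected counts of 17492 genes in 288 libraries of single EC and TB cells. Per the methods, the authors cut all reads to 51 bp and aligned them with Bowtie 1.2.3 (at most 2 mismatches) to Ensembl protein-coding genes of GRCh38. RSEM 1.2.31 then gave the expected counts, which the authors deposited with no scaling. The annotation release and any use of strand are not given in the sources used here, so reads of FOSB and ERCC1, and of JUNB and HOOK2, may not be told apart where they overlap. Of the nonzero values in EQ, 53.1% for FOS and 58.3% for EGR1 were not whole, since RSEM shares reads, and all were rounded.

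Passing cells had a log10 total count of at least 5.4 and at most 31% of counts in the 50 most abundant genes, the study's limits. CPM was computed from rounded counts. The paper states a removal of doublets and dead cells on images for the initial unEQ experiment, whose cDNA was not equalized. No doublet caller was run here. Median total counts in EC and TB were 2025136 and 1968563 in EQ, so that 1 count is worth about 0.5 CPM in a typical cell. The unEQ libraries were not analysed here. Each cell type in an experiment was 1 sample, so no test was run. Same-numbered cells share cDNA, as the study states. Ratios are of mean CPM, and a gene was tested for 2-fold where 1 mean was at least 10 CPM. Correlations took every passing cell, and those with the 8-gene mean took genes with a mean of at least 10 CPM and a count in at least 50% of cells in each experiment.

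The 8 genes and the lists were chosen with earlier results of these data known. Named besides the 8 were the 10 genes most like and the 3 least like their mean, and from each list the 3 most abundant and the 2 with the largest fold past 2-fold. Some genes that this rule named are not reported here. VTCN1, HAND1, CGA, CDX2, LUM and COL3A1 were named as checks of cell type and background, HAND1, CGA and CDX2 after their values were seen. The correlation with an 8-gene mean was also run on simulated cells in which 200 genes shared a factor per cell. Of those outside the mean, 99.5% in EC and 99.0% in TB had a rho of 0.3 or more. Of unrelated genes 2.74% and 1.66% did, against 13.3% and 5.55% of genes in the data. The simulation therefore does not stand for the background of the data. Alternatives are given in the closing section, and 3 of them were chosen after seeing the data. Gene positions are from GENCODE 44, and the computations used matplotlib 3.10.9, pandas 2.3.3, numpy 2.4.6 and scipy 1.17.1 under Python 3.11.15.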

Additional observations from a re-analysis of the deposited data

How the results depend on the processing

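Of 144 alternative values for 25 results, 133 stayed within a set spread of the main value, 11 moved and 0 reversed. For levels, detection and differences between experiments this was the SD between cells, and for counts of genes a factor of 1.5. Correlations used the SD over the 28 pairs and variances the SD over the 8 genes. These spreads are wide: FOSB counted as unmoved when its log2 ratio went from 4.90 to 3.36. A reversal could be called only for level ratios, correlations in TB and differences between experiments larger than their SD. Elsewhere a change of sign was not counted. The EC median pair rho of 0.005 was -0.044 with total count and genes detected partialled out. EQ-Vary minus EQ in TB was 0.004 with cells matched and -0.031 without. The median log2 ratio of TB to EC over the 8 genes, 3.01 with every cell, was 4.34 without the highest EC cell of each gene, and leaving out 1 cell at a time it ranged from 2.93 to 3.70. With medians in place of means the log2 ratio was 7.59 for FOS and 8.13 for EGR1. The mean detection rate of the 8 genes in EC, 64.8% at 1 count, was 42.1% at 5 counts or more, 41.8% thinned to 250000 counts and 21.7% at 10 CPM or more. In TB it was 89.1% at 1 count and 70.6% at 10 CPM or more. Without a filter on the mean, 3584 genes were at least 2-fold higher in TB and 2616 in EC, of 13333. Of the 10 genes most like the 8-gene mean in EC, 4 were the same with a mean of ranks. With the libraries outside the study's limits added, the log2 ratio was 4.0 for FOS, 3.95 for EGR1, 3.36 for FOSB and 2.53 for ATF3, and the rho of FOS with EGR1 in EC was 0.38. The median pair rho ranged from -0.02 to 0.03 in EC and 0.24 to 0.29 in TB when 1 cell was left out. Compared as groups with no replicate block, that is without matching cells, EQ-75% minus EQ was -0.304 in EC and -0.169 in TB. Settings chosen after seeing the data were the exclusion of the highest EC cells, the limit of 10 CPM for detection and its use in the correlations. Thinning to 250000 counts took EGR1 from 100% to 55.3% and JUN from 81.6% to 47.4% of EC cells.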

Other observations

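Single TB cells departed from the common pattern of the 8 genes. Cell TB 12 had the lowest FOS of all TB cells, at 41.9 CPM, but JUNB at 76.6 CPM, the second highest in TB, with ATF3 at 169, JUN at 159 and EGR1 at 728 CPM. Cell TB 45 had the lowest EGR1, at 79.4 CPM, with FOS at 110 and ATF3 at 79.4 CPM and FOSB, JUN and DUSP1 at 0. Cell TB 29 had the highest FOSB, at 291 CPM, with FOS at 2692 and EGR1 at 1978 CPM but JUN at 2.35 and JUNB at 0.94 CPM.

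In EC, cell EC 2 had in EQ the highest mean log2(CPM + 1) of the 8 genes without being high in FOS or EGR1. It had IER2 at 110, JUNB at 48.5, DUSP1 at 25.5, FOS at 12.4, JUN at 10.6 and ATF3 at 9.96 CPM. In EQ-Vary and EQ-75% the highest was EC 21, which had EGR1 at 325 and 294 CPM. Cell EC 5 had DUSP1 at 144 CPM with EGR1 at 36.2 and FOS at 3.91 CPM.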
